A study of Arabidopsis thaliana with 12 samples.

Results

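The genes described here are class III peroxidases of Arabidopsis thaliana. Other family members had been set apart beforehand, largely but not all for increases after chitin or cellobiose in earlier results of these arrays. A list of 60 loci was given. A locus was kept when an array probe set was paired with that gene alone, which left 43 measured genes, each with 1 probe set. Of the 17 loci left out, 7 share a probe set with a second gene and 10 were not found on any probe set of the annotation used. All 43 stand among 13286 genes measured this way. Because many genes that rose had been set apart with results in view, counts below describe these 43 genes and not the whole family.

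Class III peroxidases are secreted haem enzymes of plants. With hydrogen peroxide they oxidise phenolic compounds, which stiffens walls by coupling lignin, suberin and extensin proteins, and they can also release reactive oxygen in the apoplast, a part of the oxidative burst after elicitors. In roots, sets of them are known from growing root hairs, from the xylem and the Casparian strip, and from the zone where dividing cells pass into elongation. Of the listed loci, 4 were grouped for a role in the apoplastic oxidative burst and 0 of these were measured. The counts below therefore do not cover that group.

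Roots came from 7-day-old Col-0 seedlings, the wild-type accession, grown on nylon mesh that held shoots apart from roots. They were frozen 3 h after transfer to chitin (chito-oligomers, the N-acetylglucosamine polymer that fungi build into their walls), cellobiose (the repeating disaccharide of cellulose), OGs (oligogalacturonides, pectin fragments) or a control with no elicitor. No group carried a mutation or transgene in the labels, and no source used here gives the elicitor doses. Each group had 3 arrays, 12 in all, from RNA that pools the roots of many seedlings. Per the design text, the expression profile of WRKY30, a transcription factor gene, was checked in each RNA sample before the arrays were run.

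Values are log2 intensities of a probe set, as the authors normalized them. A gene is said to have risen or fallen when limma's adjusted p was under 0.05 over all 22746 probe sets tested, and levels under log2 5 are treated as near background. Arrays of a group correlated at 0.992 to 0.997. OGs replicate 3 stood apart in its control transcripts, with a 3′ minus 5′ difference for GAPDH of 0.84 (log2) against 0.13 to 0.44 on the other 11 arrays, a measure that grows with RNA degradation. Among the 32 peroxidases above background in some group, OGs replicate 3 gave the lowest of the 3 OGs values for 22. Control replicate 3 and chitin replicate 1 were each the lowest of their group for 17, and no cellobiose array for more than 13. No such count was made over all probe sets, and a part of RNA quality in these values was not tested. The 3 measured green tissue markers of 16 listed (LHCB4.1, LHCB4.2 and RCA) averaged log2 9.69 to 10.20 in control roots, 7.40 to 8.68 after chitin, 8.12 to 9.03 after cellobiose and 8.39 to 9.20 after OGs. By limma 3 fell after chitin (5.94 percent of all probe sets did) and 1 after cellobiose (0.725 percent). After OGs 0 were called, with 3 at an unadjusted p under 0.05, as were 16.6 percent of all. The part of this in the results was not tested. The few measured root markers were present. On the control arrays EXPA7 and EXPA18, 2 of 8 listed for root hairs, averaged log2 9.35 and 9.55. The endodermal receptor kinase gene GSO1, 1 of 8 listed, averaged 7.90. The 1 measured of 3 stele and columella markers read 6.71 to 7.22. Of 6 xylem markers 0 were measured. In whole roots, fewer cells of a type and less RNA per cell cannot be told apart.

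Chitin changed 10 of the 43 peroxidases, 7 higher and 3 lower, which is 23.3 percent. Over all probe sets 11.0 percent changed, 5.09 percent higher and 5.94 percent lower. The median change over the 43 was 0.03 on the log2 scale, beside -0.03 over all probe sets, and 11 of the 43 were near background in all groups. With only the chitin and control arrays fitted, the count was 6. Cellobiose changed 4 genes (9.30 percent, against 2.27 percent of all probe sets), 3 higher and 1 lower (against 1.54 and 0.725 percent of all), with a median of 0.01. OGs also changed 4 (9.30 percent, against 2.65 percent), 2 higher and 2 lower (against 1.61 and 1.04 percent), with a median of -0.05. The cellobiose count was 2 without control replicate 1 or 2 or cellobiose replicate 1 or 3, 8 without control replicate 3 and 7 with an intensity trend, and the OGs count was 1 without control replicate 1 or OGs replicate 2 or 3. In all, 11 different genes make up these calls, shown in the plot of single arrays.

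**Figure D1:**
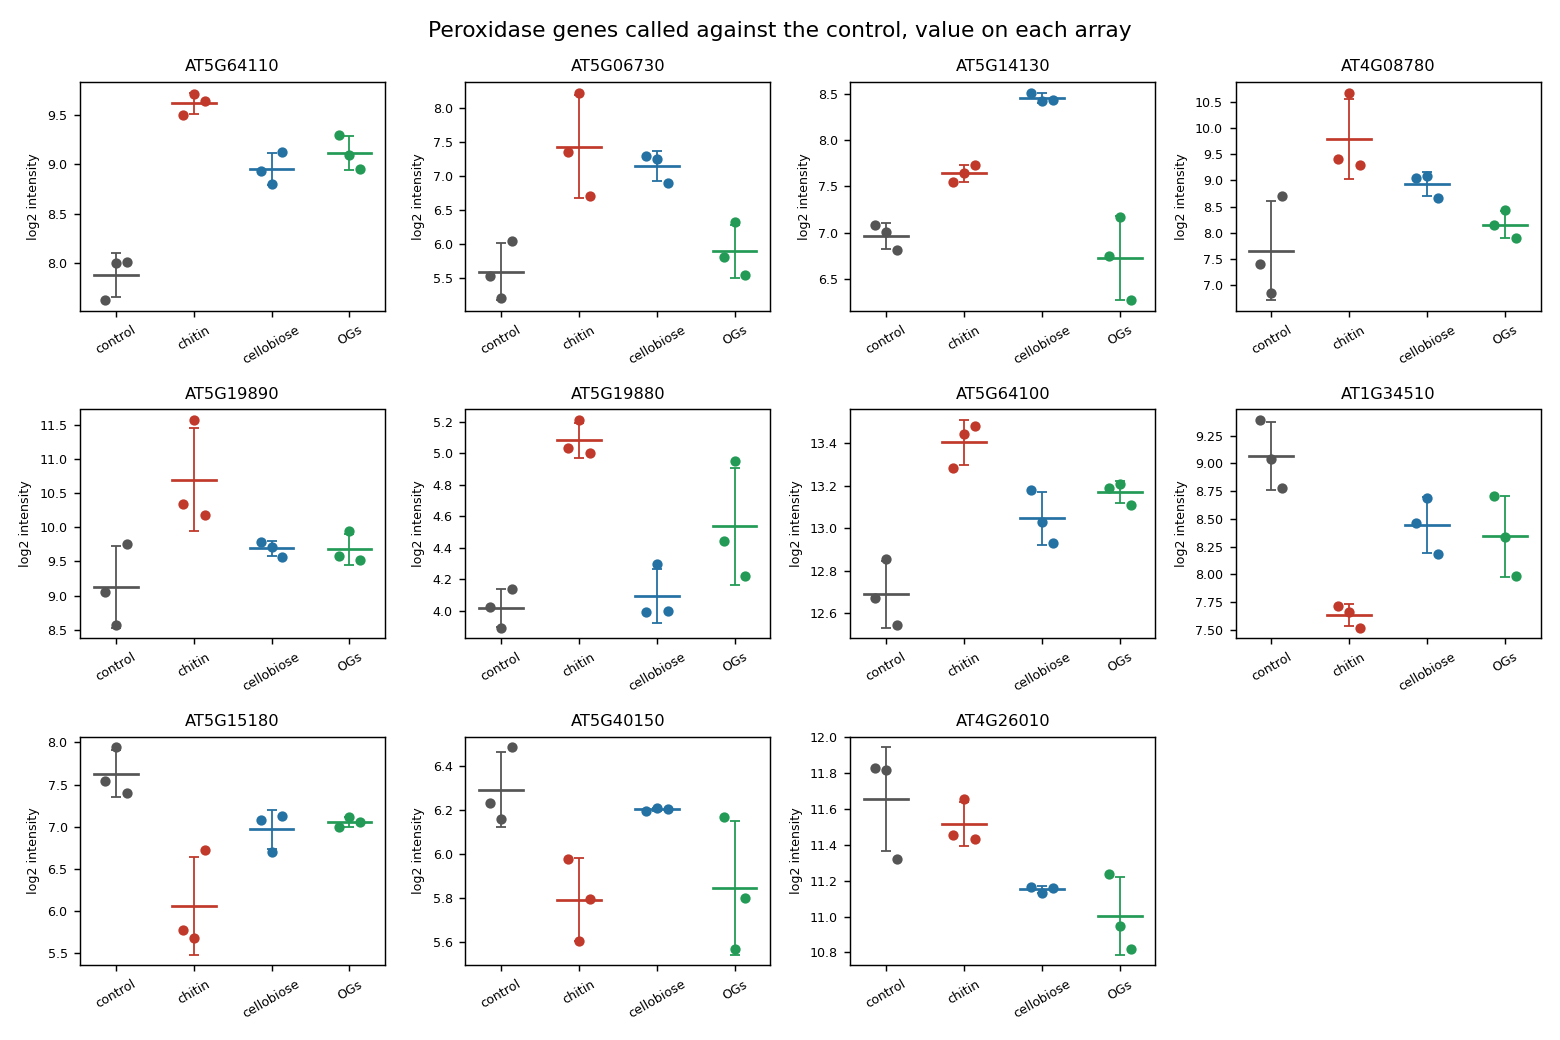
Log2 intensity of each of the 11 peroxidase genes called against the control in at least 1 comparison, with a point for each of the 3 arrays of a group, a bar at the mean and whiskers of 1 SD. AT5G64110 lies above the control after all 3 elicitors and AT1G34510 below it, while AT5G14130 is highest on the cellobiose arrays. Vertical axes differ between panels and do not start at 0.

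AT5G64110 was higher after each of the 3 elicitors. Its values were log2 7.62, 8.001 and 8.01 on the control arrays, 9.50, 9.71 and 9.64 after chitin, 8.93, 8.80 and 9.12 after cellobiose, and 9.29, 9.09 and 8.95 after OGs. Every elicitor array lay above every control array, and the chitin arrays lay above all others. The rise was 1.73 ± 0.13 (log2, SE) or 3.33-fold after chitin (limma adjusted p = 1.26e-05), 1.07 ± 0.13 after cellobiose (adjusted p = 0.00219) and 1.23 ± 0.13 after OGs (adjusted p = 0.00108). These 3 comparisons share the control arrays. None of the alternatives run, each array left out in turn included, removed these 3 calls.

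AT5G64110 lies between 2 other peroxidase genes in the RefSeq gene table, AT5G64100 on one side and AT5G64120 on the other. AT5G64100, a peroxidase known from root hair growth in the cold, read log2 12.67, 12.86 and 12.54 on the control arrays and 13.28, 13.45 and 13.48 on the chitin arrays. It read 13.18, 13.03 and 12.93 after cellobiose and 13.19, 13.21 and 13.11 after OGs, again with no elicitor array as low as a control array. It rose by 0.71 ± 0.10 after chitin (limma adjusted p = 0.000834) and by 0.48 ± 0.10 after OGs (adjusted p = 0.0297), and its change after cellobiose was 0.36 (adjusted p = 0.0906, and 0.0474 with an intensity trend in the variance). The OGs call was lost without control replicate 1 (adjusted p = 0.0799) or 3 (0.0974), without any 1 OGs array (0.0900 to 0.0989), without cellobiose replicate 3 (0.0504) or when only OGs and control arrays were fitted (0.0756). AT5G64120, set apart from the 43 genes beforehand, rose by 0.69, 0.60 and 0.57 after chitin, cellobiose and OGs.

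AT5G06730 rose after chitin and after cellobiose. Control values were log2 5.54, 5.20 and 6.04, chitin values 7.36, 8.23 and 6.71, cellobiose values 7.29, 7.25 and 6.90, and OGs values 5.82, 6.32 and 5.55. The chitin and cellobiose arrays lay above all control arrays, and the OGs arrays overlapped the control. The rise was 1.84 ± 0.32 after chitin (limma adjusted p = 0.00359) and 1.55 ± 0.32 after cellobiose (adjusted p = 0.0326), and the change after OGs was 0.30 (95 percent interval -0.40 to 1.00). After chitin the call was lost when only these 2 groups were fitted (adjusted p = 0.0724). After cellobiose it was lost without control replicate 1 (0.0897) or 2 (0.107), without any 1 cellobiose array (0.0883 to 0.144) or without OGs replicate 1 (0.0502). Its neighbour in the gene table, AT5G06720, was not measured through a probe set of its own.

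AT5G14130 was highest after cellobiose. It read log2 7.08, 7.01 and 6.81 on the control arrays, 7.54, 7.65 and 7.73 after chitin, 8.51, 8.42 and 8.43 after cellobiose, and 6.75, 7.17 and 6.27 after OGs. The control, chitin and cellobiose arrays formed 3 levels without overlap, and the OGs arrays spread around the control. Cellobiose raised it by 1.49 ± 0.16 (2.81-fold, limma adjusted p = 0.000835) and chitin by 0.68 ± 0.16 (adjusted p = 0.0206), while OGs gave -0.24 (95 percent interval -0.59 to 0.12). The chitin call was lost without control replicate 2 (adjusted p = 0.0901) or 3 (0.0530) or without chitin replicate 3 (0.0905), and the cellobiose call under none of the alternatives run.

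AT4G08780 and AT5G19890 rose after chitin with a wide spread between arrays. AT4G08780 read log2 7.42, 6.86 and 8.71 on the control arrays and 9.41, 10.67 and 9.29 after chitin. Control replicate 3 was the highest control array and chitin replicate 2 the highest chitin array, and the groups did not overlap. The rise was 2.13 ± 0.45 (limma adjusted p = 0.0108), and it missed the threshold without control replicate 1 (adjusted p = 0.0501) or with only the 2 groups fitted (0.109). After cellobiose it read 9.05, 9.09 and 8.66 and changed by 1.27 (adjusted p = 0.183). That change was 1.96 and passed the test without control replicate 3 (adjusted p = 0.00932). After OGs it read 8.14, 8.43 and 7.90, inside the range of the control arrays.

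AT5G19890 showed the same 2 arrays at the top, with log2 9.05, 8.57 and 9.76 on the control arrays and 10.34, 11.57 and 10.18 after chitin. Its rise was 1.57 ± 0.35 (limma adjusted p = 0.0144), lost without control replicate 1 (adjusted p = 0.0513) or 2 (0.0525) and with only the 2 groups fitted (0.137). Cellobiose and OGs gave 0.56 and 0.55, with 95 percent intervals of -0.21 to 1.33 and -0.22 to 1.32. Its neighbour in the gene table, AT5G19880, also rose after chitin. That gene was near background on the control arrays, at log2 4.02, 3.89 and 4.14, and read 5.03, 5.21 and 5.004 after chitin. The fitted change was 1.07 ± 0.14 (adjusted p = 0.000734). With values under log2 5 raised to 5, the bound is only at least 1.06-fold. After OGs it read 4.44, 4.95 and 4.22, so both the OGs and the control arrays were near background and no change is given.

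AT1G49570 came close to the threshold after chitin. It read log2 9.24, 8.77 and 10.06 on the control arrays, 10.14, 10.56 and 10.27 after chitin, 9.998, 10.14 and 10.12 after cellobiose, and 10.02, 10.16 and 9.48 after OGs. As for AT4G08780 and AT5G19890, control replicate 3 was the highest control array. The change after chitin was 0.97 ± 0.28 (limma adjusted p = 0.0527), and cellobiose and OGs gave 0.73 and 0.53.

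Among genes placed in a root hair group from what is known of them, 6 of 9 were measured. After OGs 2 fell and 1 rose, after chitin 1 fell and 1 rose, and after cellobiose 1 fell. Over all probe sets 1.04 percent fell and 1.61 percent rose after OGs, 5.94 and 5.09 percent after chitin, and 0.725 percent fell after cellobiose. The medians of the 6 were -0.44, -0.24 and -0.35, against -0.01, -0.03 and -0.00074 over all probe sets. AT1G34510, expressed in root hair cells, fell after all 3 elicitors. Its control values of log2 9.39, 9.04 and 8.78 lay above 7.71, 7.66 and 7.52 after chitin, 8.47, 8.69 and 8.18 after cellobiose, and 8.71, 8.34 and 7.98 after OGs. The chitin arrays were the lowest of all 12. It changed by -1.44 ± 0.12 after chitin (limma adjusted p = 2.91e-05), -0.63 ± 0.12 after cellobiose (adjusted p = 0.0269) and -0.73 ± 0.12 after OGs (adjusted p = 0.0132).

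The chitin call of AT1G34510 held under all alternatives run. The cellobiose call was lost without control replicate 1 (adjusted p = 0.0882) or 2 (0.0620), without cellobiose replicate 1 (0.124) or 3 (0.136), and without the replicate block (0.105). The OGs call was lost without control replicate 1 (0.0527), without OGs replicate 2 (0.0635) or 3 (0.0563), and without the block (0.0597).

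AT4G26010, which acts on extensins in growing root hairs, fell after OGs. It read log2 11.83, 11.82 and 11.32 on the control arrays, 11.45, 11.65 and 11.43 after chitin, 11.17, 11.13 and 11.16 after cellobiose, and 11.24, 10.95 and 10.82 after OGs. The cellobiose and OGs arrays lay below all control arrays, and the chitin arrays overlapped them. The changes were -0.65 ± 0.12 after OGs (limma adjusted p = 0.0203), -0.50 ± 0.12 after cellobiose (adjusted p = 0.0579) and -0.14 ± 0.12 after chitin (adjusted p = 0.576). The OGs call was lost without control replicate 1 (adjusted p = 0.0675) or 2 (0.0690) and without OGs replicate 2 (0.0957) or 3 (0.0740), while the cellobiose change passed without control replicate 3 (0.0247), with median centring (0.0428) and with an intensity trend in the variance (0.0329).

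AT3G49960, another root hair peroxidase, read log2 9.89, 9.44 and 9.22 on the control arrays and 8.38, 9.41 and 8.41 after chitin, where replicate 2 reached the control range. Its changes were -0.79 after chitin (limma adjusted p = 0.0580), -0.74 after cellobiose (adjusted p = 0.143) and -0.54 after OGs (adjusted p = 0.280). AT1G30870 and AT5G17820 gave -0.11 to -0.24 and -0.19 to -0.34 over the 3 elicitors, with no call. AT5G64100, described above, was the 1 member of this group that rose. The root hair expansin gene EXPA18 fell by 0.38 after chitin (adjusted p = 0.0467) and changed by -0.39 and -0.43 after cellobiose and OGs, and EXPA7 changed by 0.07, -0.08 and 0.09. Whether changes in root hairs had a part in the peroxidase values was not tested.

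**Figure D2:**
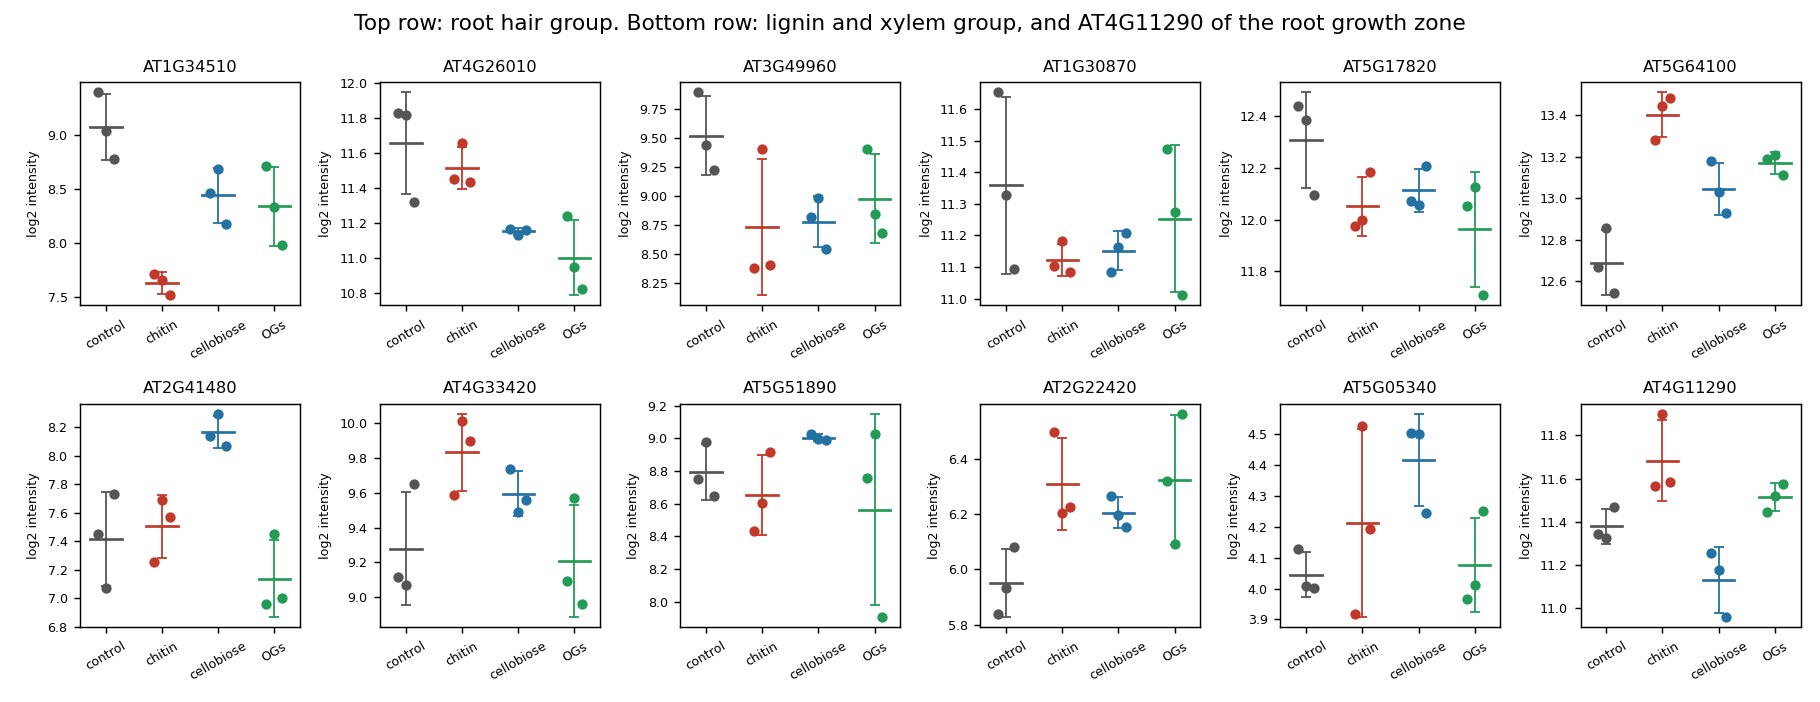
Log2 intensity of the 6 measured root hair peroxidases (top row) and of 5 lignin and xylem peroxidases with AT4G11290 (bottom row), with a point for each array, a bar at the mean of 3 and whiskers of 1 SD. By their means, the control arrays are highest for every root hair gene except AT5G64100, where they are lowest, and AT2G41480 is highest after cellobiose. Vertical axes differ between panels and do not start at 0.

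AT5G15180 and AT5G40150 also fell after chitin. AT5G15180 read log2 7.55, 7.95 and 7.40 on the control arrays and 5.78, 5.68 and 6.73 after chitin, with replicate 3 nearest to the control and no overlap. After cellobiose it read 7.07, 6.70 and 7.13 and after OGs 6.99, 7.11 and 7.06, in between. It fell by 1.57 ± 0.24 after chitin (limma adjusted p = 0.00160), a call kept under all alternatives, and changed by -0.66 after cellobiose (adjusted p = 0.187) and -0.58 after OGs (adjusted p = 0.249). AT5G40150 fell by 0.50 ± 0.12 after chitin (adjusted p = 0.0244), from 6.23, 6.16 and 6.48 to 5.98, 5.60 and 5.80. That call was lost without control replicate 2 (adjusted p = 0.0869) or 3 (0.0892), without chitin replicate 2 (0.0990) or 3 (0.0806) and with only the 2 groups fitted (0.0753).

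Of the 6 genes known from lignin, xylem or the Casparian strip, 5 were measured and 0 were called by limma against the control after any elicitor. The 5 are described below from stems, xylem or lignified tissues, so this count does not cover the Casparian strip. At an unadjusted p under 0.05 they numbered 2 after chitin, 2 after cellobiose and 1 after OGs, of 5 genes each time. Over all probe sets 22.6, 16.8 and 16.6 percent were under that limit, so 1 of 5 after OGs is near the share over all probe sets. AT2G41480 (PRX25), known from stem lignification, read log2 7.45, 7.07 and 7.73 on the control arrays, 7.26, 7.69 and 7.57 after chitin, 8.14, 8.29 and 8.07 after cellobiose, and 6.96, 7.45 and 7.00 after OGs. The cellobiose arrays lay above all others, and the change from the control was 0.75 ± 0.17 (limma adjusted p = 0.0555). AT4G33420, a peroxidase of xylem vessels, changed by 0.55 after chitin (adjusted p = 0.0938). AT2G22420, known from lignified tissues, changed by 0.36, 0.25 and 0.37 after chitin, cellobiose and OGs, with every elicitor array above every control array and adjusted p-values of 0.0820 to 0.307.

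AT5G51890, known from developing tracheary elements, changed by -0.14, 0.21 and -0.23. Its lowest value was log2 7.91 on OGs replicate 3, the array that stood apart, against 8.76 and 9.02 on the other OGs arrays. PRX52, a lignin peroxidase of stems, stayed under log2 5 in all 4 groups, with changes of 0.03 to 0.37 and no call.

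In the zone of the root where cells leave division, AT4G11290 and AT4G16270 are known targets of the transcription factor UPBEAT. AT4G16270 was near background in all groups. AT4G11290 read log2 11.34, 11.32 and 11.47 on the control arrays, 11.57, 11.90 and 11.58 after chitin, 11.25, 11.17 and 10.96 after cellobiose and 11.45, 11.52 and 11.58 after OGs. The chitin arrays lay above and the cellobiose arrays below the control arrays, though neither difference passed against the control (0.31, limma adjusted p = 0.111, and -0.25, adjusted p = 0.280).

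Of the 43 genes, 11 stayed under log2 5 in all 4 groups, and none of them was called in any comparison by limma. Their group means differed by at most 0.37. They include the seed coat peroxidase gene AT3G50990 (PER36) and the neighbours AT5G58390 and AT5G58400. Changes in dim probe sets are compressed, so these genes show only that no signal above that level was detected in roots with these probe sets.

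Above background, 18 genes were called in no comparison. Among them were AT1G44970 and AT2G18980, placed with PER36 in a seed and anther group. Their group means were log2 7.83 to 8.14 and 10.43 to 10.66. PRXR1 (AT4G21960) read log2 13.22, 13.04 and 13.15 on the control arrays and 12.82 to 13.16 on the 9 elicitor arrays, with changes of -0.09 to -0.22. AT3G01190 changed by -0.47 after OGs (limma adjusted p = 0.0771), where it read 11.52, 11.71 and 11.62 against 11.99, 12.30 and 11.96 in the control. For genes above background and not called, the 95 percent interval of the change lay within 1 log2 unit on either side of 0 for 19 of 22 after chitin, 21 of 28 after cellobiose and 22 of 28 after OGs. It lay within 0.5 for 8, 13 and 9 of them. For the others the interval reached 0.5 or beyond, so a change of that size was not bounded.

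**Figure D3:**
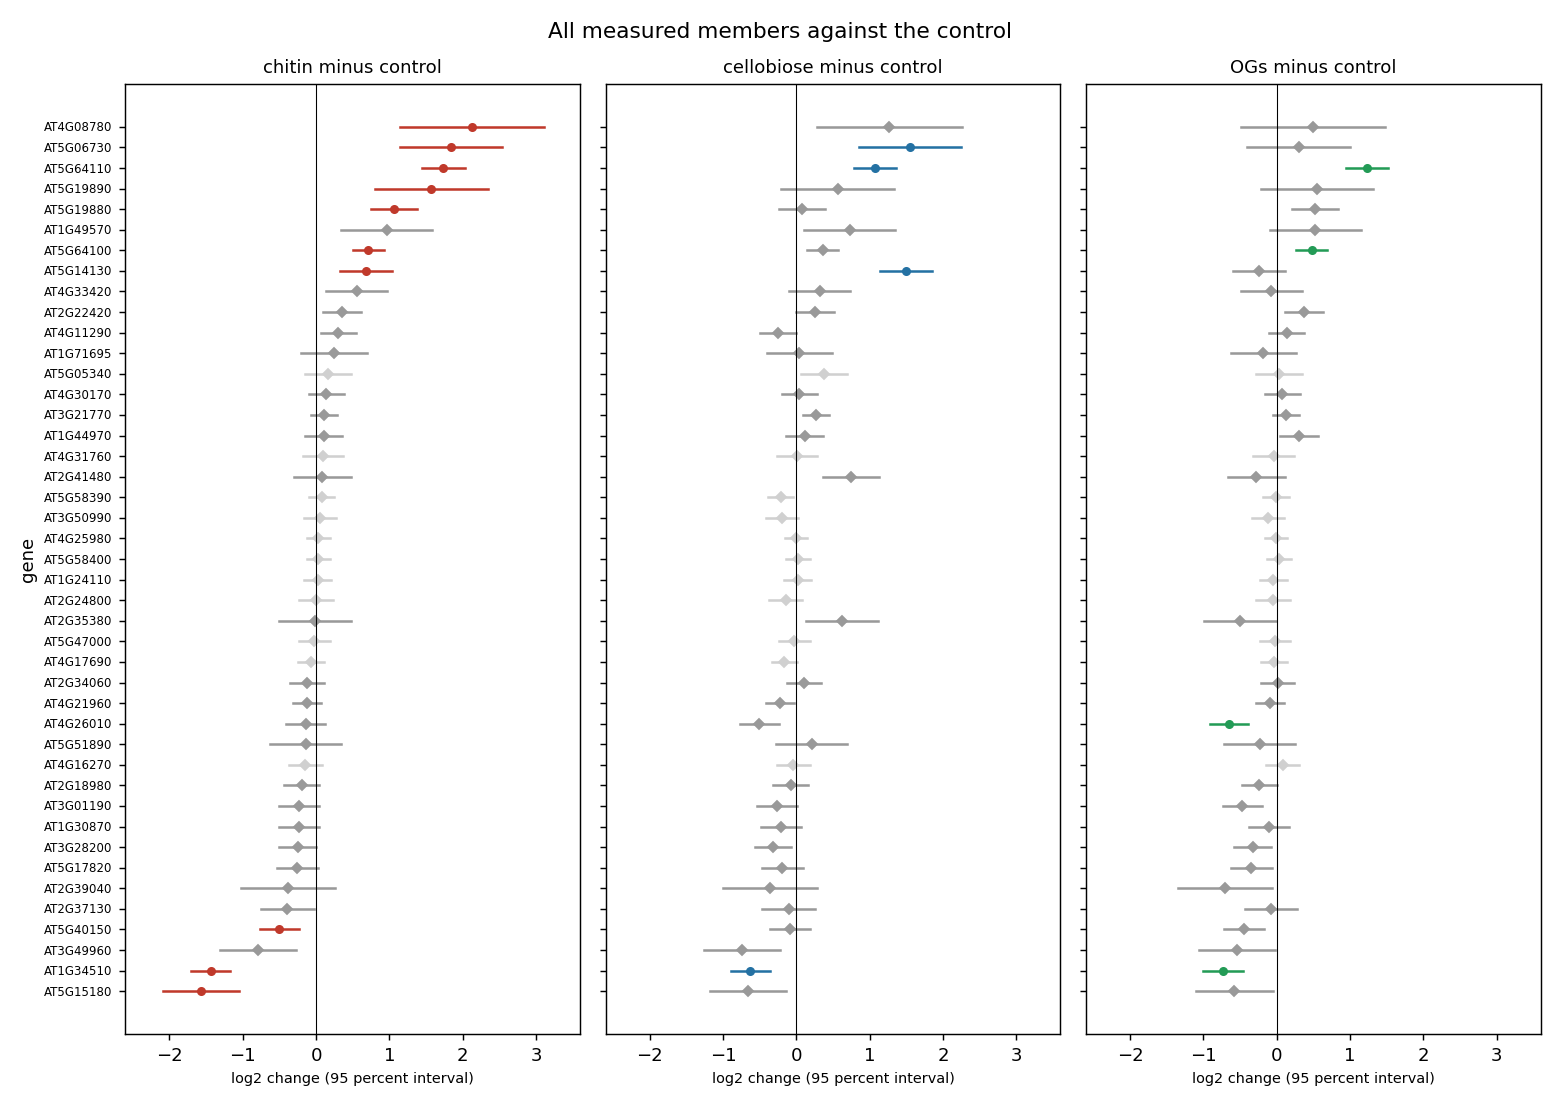
Log2 change against the control of all 43 measured peroxidases after chitin, cellobiose and OGs, with 95 percent intervals from the limma fit, in the order of the chitin change. Coloured circles passed the test (10, 4 and 4 genes), grey diamonds did not, and the palest diamonds mark the 11 genes near background in all groups.

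Differences between elicitors were tested directly in the same fit, at doses that are not known here. Chitin and cellobiose differed at 5 genes (11.6 percent, against 5.45 percent of all probe sets), 3 higher and 2 lower after chitin (against 2.93 and 2.51 percent). OGs and chitin also differed at 5 (against 3.57 percent), 2 higher and 3 lower after OGs (against 1.42 and 2.15 percent), and OGs and cellobiose at 3, all lower after OGs (against 1.31 percent, 0.747 percent lower). Without control replicate 3 both comparisons with chitin gave 8 genes. Chitin against cellobiose gave 2 without chitin replicate 2 and 3 without cellobiose replicate 2 or 3. OGs against chitin gave 2 without chitin replicate 2 or OGs replicate 3, and 3 without control replicate 1, chitin replicate 1, cellobiose replicate 1 or 2 or OGs replicate 2. OGs against cellobiose gave 1 without cellobiose replicate 1 or 3 or OGs replicate 1 or 3. AT5G14130 differed in all 3, by -1.73 ± 0.16 for OGs minus cellobiose (limma adjusted p = 0.000251), -0.91 ± 0.16 for OGs minus chitin (adjusted p = 0.00937) and -0.81 ± 0.16 for chitin minus cellobiose (adjusted p = 0.0136). AT1G34510 was lower after chitin than after cellobiose by 0.81 ± 0.12 (chitin minus cellobiose -0.81, adjusted p = 0.00285) and than after OGs (OGs minus chitin 0.71, adjusted p = 0.00829), while OGs and cellobiose differed by -0.10 (95 percent interval -0.37 to 0.17).

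Of the other differences from OGs, AT5G06730 was lower after OGs than after chitin (-1.54 ± 0.32, limma adjusted p = 0.0223), as was AT4G26010 (-0.51 ± 0.12, adjusted p = 0.0425), and AT5G15180 was higher (0.99 ± 0.24, adjusted p = 0.0460). AT2G41480 and AT2G35380 were lower after OGs than after cellobiose, by -1.03 ± 0.17 (adjusted p = 0.0167) and -1.12 ± 0.22 (adjusted p = 0.0384). AT2G35380 read log2 7.63, 7.47 and 7.73 after cellobiose and 6.05, 7.11 and 6.32 after OGs, against control values of 7.12, 7.20 and 6.65. The cellobiose arrays lay above all control and OGs arrays, while OGs replicate 2 lay within the control range and the other OGs arrays below it. Neither change from the control passed the test (0.62, adjusted p = 0.188, and -0.50, adjusted p = 0.294).

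Chitin exceeded cellobiose at AT5G64110 (0.66 ± 0.13, limma adjusted p = 0.0146), AT4G11290 (0.55 ± 0.11, adjusted p = 0.0135) and AT5G19880 (adjusted p = 0.00209). The cellobiose arrays of AT5G19880 were all under log2 5, so the fitted difference of 0.99 is not a measured size, and the bound is at least 1.06-fold. For AT5G64110 the difference of OGs from cellobiose was 0.16 (95 percent interval -0.13 to 0.45). AT4G08780 read 3.10-fold lower after OGs than after chitin without passing (-1.63 ± 0.45, adjusted p = 0.0797).

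Of these 13 differences, 3 kept their call under all alternatives in which the gene was tested: OGs against cellobiose at AT5G14130, and chitin against cellobiose at AT1G34510 and AT5G19880. For OGs against chitin, the AT1G34510 call was lost without the replicate block (limma adjusted p = 0.0571) and the AT5G14130 call with only the 2 groups fitted (0.0544). The AT5G15180 difference was lost without any 1 array other than control replicates 2 and 3 and chitin replicate 3 (adjusted p up to 0.221), after quantile normalization (0.0595) or median centring (0.0570), and with only the 2 groups (0.0610). That of AT4G26010 was lost without control replicate 1, chitin replicates 2 or 3, cellobiose replicates 1 or 2 or OGs replicates 2 or 3 (up to 0.202), without the block (0.0604) and with only the 2 groups (0.0851). The AT2G35380 difference was lost without control replicate 2, cellobiose replicates 1 or 3, or OGs replicates 1 or 3 (up to 0.199) and with only the 2 groups (0.0683), and AT2G41480 without any 1 cellobiose array or OGs replicates 1 or 3 (up to 0.114). AT5G06730 lost its call without chitin replicates 1 or 2 or any 1 OGs array (up to 0.110). Against cellobiose, the chitin difference was lost at AT4G11290 without chitin replicate 2 or cellobiose replicates 2 or 3 (up to 0.0857), at AT5G64110 without chitin replicate 2 or cellobiose replicates 1 or 2 (up to 0.0944), and at AT5G14130 without chitin replicates 1 or 2 or cellobiose replicates 1 or 3 (up to 0.0858).

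**Figure D4:**
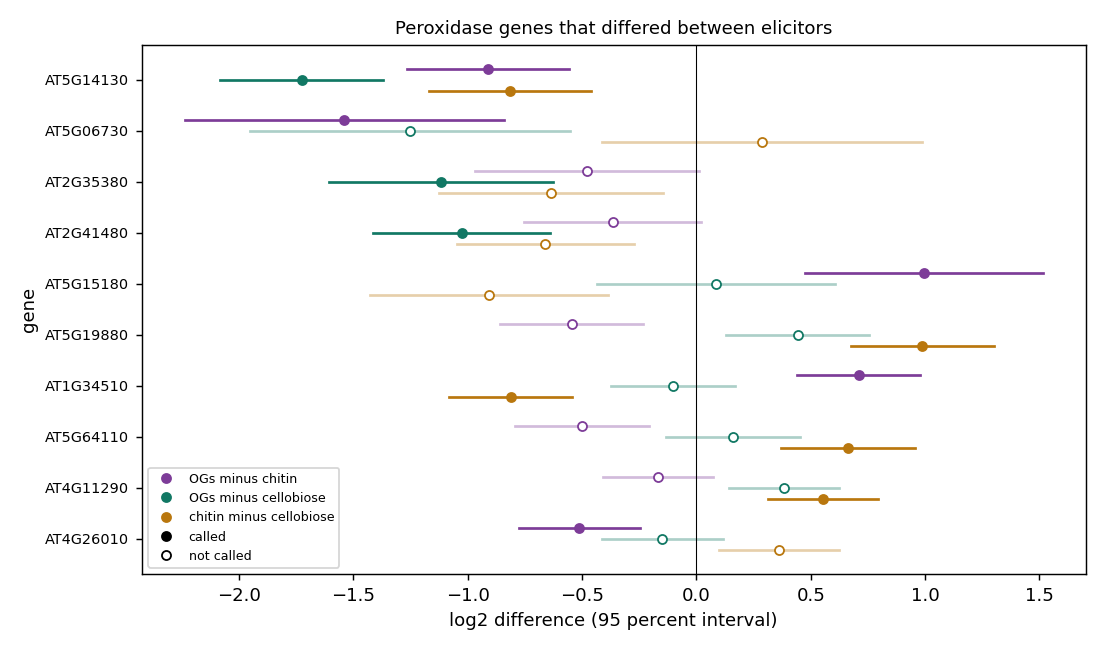
Log2 difference between each pair of elicitors, with 95 percent intervals from the limma fit, for the 10 peroxidase genes that differed in at least 1 pair; filled circles passed the test and open circles did not. AT5G14130 differs in all 3 pairs, and OGs lie below cellobiose at AT2G35380 and AT2G41480.

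The moderated F test over the 4 groups called 13 of the 43 genes, beside 9.76 percent of all probe sets. They were AT2G35380, AT2G41480, AT4G11290 and 10 of the 11 genes called against the control, without AT5G19890 (adjusted p = 0.0621).

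Genes that work with peroxidases in the wall were read from lists. Of the 13 family members set apart beforehand, 12 were measured, and 8 rose after chitin (5.09 percent of all probe sets did), 5 rose after cellobiose (1.54 percent), and 2 rose and 1 fell after OGs (1.61 and 1.04 percent). They had been chosen largely for such increases. Of the 10 NADPH oxidases, which make the superoxide that becomes hydrogen peroxide, 3 were measured. Of these, 2 rose after chitin, 1 after cellobiose and 1 after OGs, against 5.09, 1.54 and 1.61 percent of all probe sets. AT4G25090 rose after each elicitor, by 0.79, 0.62 and 0.48 after chitin, cellobiose and OGs (limma adjusted p = 0.000531, 0.0113 and 0.0328). AT4G11230 rose by 1.497 after chitin, and the remaining measured gene was not called against the control. Of 17 laccases, oxidases of monolignols that need no hydrogen peroxide, LAC16 alone was measured, and it rose by 2.13 after cellobiose (adjusted p = 0.000116) and by 0.90 after chitin. After OGs its mean of log2 4.94 was near background, against 5.43 in the control, and the change was not called (adjusted p = 0.175). Of 21 monolignol synthesis genes 2 were measured, of which CCR2, a cinnamoyl-CoA reductase gene, rose by 1.24 after chitin and HCT was not called.

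Extensins, wall glycoproteins that peroxidases cross-link, had 11 of 19 genes measured. After chitin 3 rose and 2 fell (5.09 and 5.94 percent of all probe sets), after cellobiose 1 rose and 2 fell (1.54 and 0.725 percent of all), and after OGs 1 rose (1.61 percent of all). Of the 3 that rose after chitin, AT4G08380 was near background in both groups, at means of log2 4.16 and 3.80, so no size is given for it. AT1G26250 rose by 3.46 ± 0.16 after chitin (limma adjusted p = 4.21e-07), 1.17 after cellobiose and 1.18 after OGs. AT4G08410 fell by 0.77 after chitin (adjusted p = 0.00520) and by 0.85 after cellobiose (adjusted p = 0.0128), and AT5G06630 fell by 0.75 and 0.91. AT1G26240 rose at least by 1.37 after chitin, where its control level was near background. The list's median was -0.21 after chitin, -0.00041 after cellobiose and 0.12 after OGs.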

How the data were processed

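The authors deposited normalized log2 intensities of Affymetrix ATH1 probe sets. The series design text names GCRMA, and the submitters' processing notes name Affymetrix Expression Console, without versions or which of them made these values. A second time point named in that text is not analysed here. Such scaling hides a shift shared by all transcripts. Precision is limited by the number of arrays.

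The table held 22810 probe sets, 64 of them controls. The remaining 22746 went into limma 3.58.1 (lmFit, eBayes; R 4.3.3): 4 groups, the replicate number as a block (the design text takes ratios within sample pairs), 6 residual degrees of freedom, 6 two-sided contrasts and an F test. P-values were Benjamini-Hochberg adjusted within a contrast. Errors are SEs of the fit. The labels call the 3 replicates biological.

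Probe sets were matched to genes through the platform annotation and RefSeq gene IDs. Members called against the control are named, with up to 4 others a role group. Members and lists were chosen with earlier results of these data known. The code was tested on simulated data. Alternatives were no block, other scalings, a brightness filter, a variance trend, fits of 2 groups and each array left out.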

Additional observations from a re-analysis of the deposited data

Results flagged for a closer look

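Probe sets that detect 2 listed peroxidase genes each were left out above. Of these, 2 rose after chitin, beside 5.09 percent of all probe sets. The other, paired with AT2G38380 and AT2G38390, changed by 0.04, -0.09 and -0.08 after chitin, cellobiose and OGs, without a call. The probe set paired with AT2G18140 and AT2G18150, read log2 7.28, 6.78 and 8.10 on the control arrays and 9.16, 9.67 and 8.47 after chitin, a rise of 1.71 ± 0.35 (SE, limma adjusted p = 0.00966). Its changes after cellobiose and OGs were 0.72 and -0.05, without a call. The probe set paired with AT4G37520 and AT4G37530, read 10.52, 10.52 and 10.36 on the control arrays and 10.87, 10.92 and 10.91 after chitin, a rise of 0.43 ± 0.09 (adjusted p = 0.0116). Between elicitors, the AT2G18140 and AT2G18150 probe set was lower after OGs than after chitin (-1.76, limma adjusted p = 0.0193), as were 2.15 percent of all. The AT4G37520 and AT4G37530 probe set was higher after chitin than after cellobiose (0.45, adjusted p = 0.0169), as were 2.93 percent. A probe set that pairs the listed AT3G17070 with AT3G42570 stayed near background in all groups, without a call. Which gene of a pair the signal comes from cannot be told apart.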

How the results depend on the processing

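No called change reversed under any alternative run. Without the block, with a brightness filter or variance trend, or with only the 2 groups fitted, the estimated change stays the same. It also stays the same when an array of a group outside the comparison is left out. No reversal was possible in those fits. Of 18 calls of single genes against the control 8 were kept under all of them, and of 13 between elicitors 3. Each gene had 1 probe set, so averaging probe sets could not be run as an alternative. Of 125 recounts of the called members 97 lay within 1.5 times the count given. With only the 2 groups fitted, chitin changed 6 genes against 10, and with an intensity trend in the variance cellobiose changed 7 against 4. Chitin and cellobiose differed at 9 genes against 5, both with the trend and without the replicate block. Without the replicate block the counts were otherwise 11 for chitin, 4 for cellobiose, 3 for OGs, 5 for OGs against chitin and 3 for OGs against cellobiose. Over all probe sets, same-numbered arrays of 2 groups correlated in their deviations from the group means at -0.23 to 0.25, over 0.1 in 6 of 18 cases. That does not show how far single genes followed the replicate number, which was not tested.

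Leaving out each array in turn gave 7 to 11 genes for chitin, 2 to 8 for cellobiose, 1 to 5 for OGs, 2 to 8 for OGs against chitin, 1 to 4 for OGs against cellobiose, 2 to 8 for chitin against cellobiose and 9 to 16 for the F test. Leaving out control replicate 3 gave the highest count, alone or tied, in all 7. Without OGs replicate 3, OGs changed 1 gene. The lowest counts arose without control replicate 2 (chitin), control replicates 1 or 2 or cellobiose replicates 1 or 3 (cellobiose), and control replicate 1 or OGs replicates 2 or 3 (OGs); each such fit also has 1 array fewer.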
